A study of Mus musculus with 2 samples.

Results

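To ask whether DNA hypomethylated fibroblasts show an interferon-like state, 46 interferon-stimulated and nucleic acid sensing genes were chosen by name. The choice was made with earlier results of these data known. The genes were read out of the mRNA-seq table of Dnmt1+/+ and Dnmt1-/- mouse embryonic fibroblasts (MEFs). Of these genes 45 had an entry in the table, against 20906 entries with a gene symbol in all, and no entry was found under the symbol Ifnb1, so the RNA of interferon beta itself was not analysed here. One library was sequenced from Dnmt1+/+ MEFs and 1 from Dnmt1-/- MEFs, both grown under standard conditions without treatment. The cells labelled Dnmt1-/- carry 2 copies of a hypomorphic Dnmt1 allele, Dnmt1 being the gene of the main maintenance DNA methyltransferase, and the cells of both genotypes are also homozygous null for trp53, the gene of p53. The strain is given as unknown. With 1 cell line and 1 library per genotype, the genotype and any other difference between the lines cannot be told apart, and no test between replicates is possible.

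Type I interferons are secreted by cells that sense foreign or misplaced nucleic acid. RNA sensors signal through the adaptor Mavs, and cytosolic DNA through Tmem173 (STING), to the kinase Tbk1 and the factors Irf3 and Irf7, which switch on interferon genes. Secreted interferon binds the receptor made of Ifnar1 and Ifnar2, and a complex that holds Stat2 and Irf9 then activates interferon-stimulated genes, many of which encode antiviral proteins or the sensors themselves. Fibroblasts are a classical source of interferon beta and respond to it.

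Levels are RPKM values (reads scaled to transcript length and to the number of mapped reads), and being scaled by length they can be set side by side between genes. The change of a gene is log2(RPKM + 0.1) in Dnmt1-/- minus the same in Dnmt1+/+ MEFs, which makes changes at low RPKM look smaller than they are, and folds are given on the same RPKM + 0.1 scale. The table holds RPKM values and no read counts, and no counting error is given for a gene. Dnmt1 itself was at 65.2 RPKM and 14.5 RPKM in the Dnmt1+/+ and the Dnmt1-/- library, with a log2 change of -2.16. RNA of the Trp53 locus was listed at 18.6 and 19.9 RPKM, respectively. The median log2 change of the 10869 entries with a symbol and a mean RPKM of at least 1 was -0.14, and subtracting it moved none of the 45 interferon entries across the 2-fold threshold.

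Of the 45 interferon entries, 29 (64.4%) had RPKM values over 2-fold higher in Dnmt1-/- MEFs, where the same held for 7.23% of all entries with a symbol. Only 1, Trim25, was more than 2-fold lower, against 8.03% of all entries. The median log2 change of the 45 entries was 1.62, with a lower quartile of 0.14 and an upper quartile of 2.97. Over all entries with a symbol the median was 0, with quartiles of -0.36 and 0.16. With a pseudocount of 1 in place of 0.1, 20 of the 45 entries were still over 2-fold higher, against 3.75% of all, and the median log2 change of the 45 was 0.73. Among the 45 entries, those of the ISG15 system, the oligoadenylate synthetases, the guanylate-binding proteins and the cytosolic RNA helicases were all over 2-fold higher. Tmem173, Irf5, Irf7 and Irf9 were also over 2-fold higher. The receptor subunits, Irf3, Mavs and Tbk1 were within 2-fold, and so were Ifit2, Ifitm2, Eif2ak2, Adar and Stat2. Among the 34 entries with a mean RPKM of at least 1, 20 (58.8%) were over 2-fold higher, against 7.42% of all entries with such a mean, and Trim25 was again the 1 lower entry, against 9.91%.

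**Figure D1:**
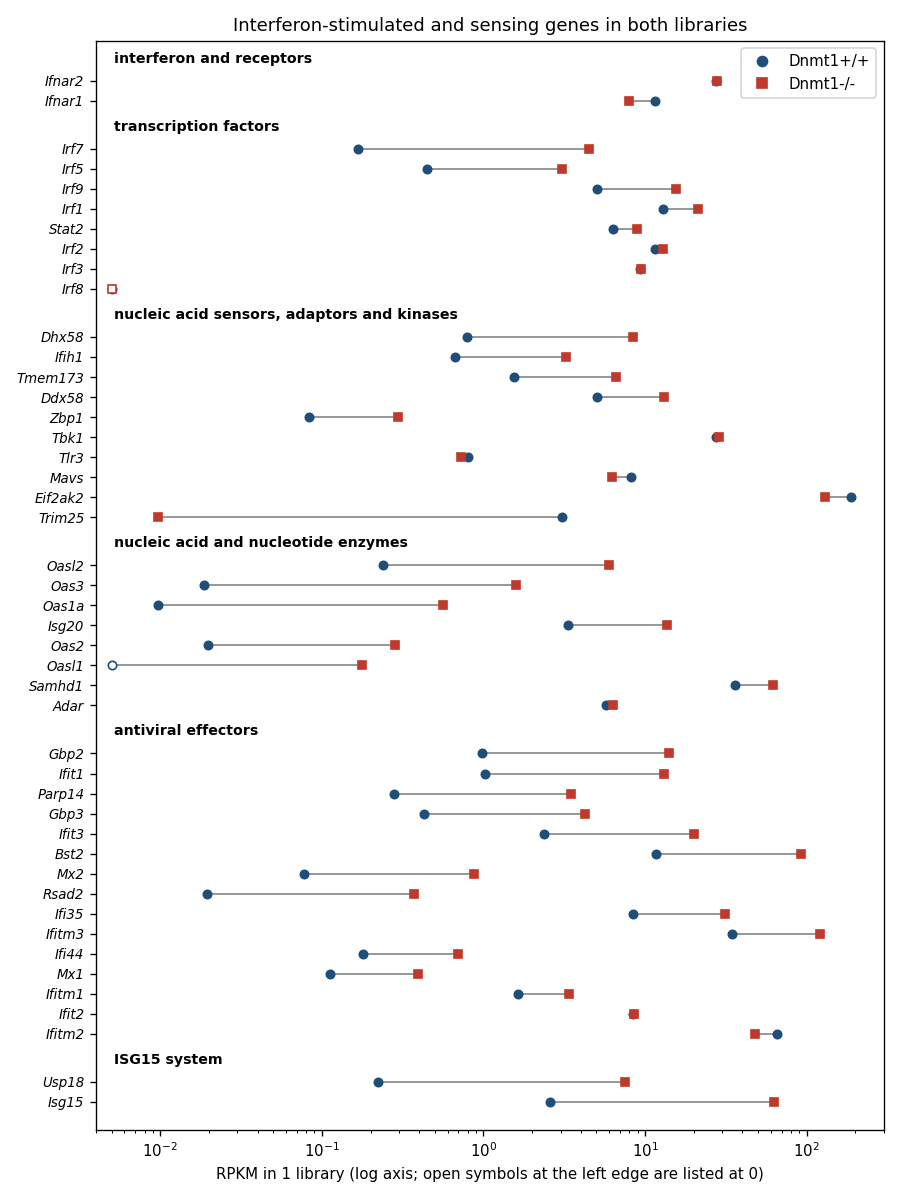
RPKM of each of the 45 interferon entries in the Dnmt1+/+ library (circles) and the Dnmt1-/- library (squares) on a log axis, grouped by role, with a line joining both values of an entry. The squares lie to the right of the circles for both genes of the ISG15 system and for 14 of the 15 antiviral effectors, while Trim25 shows the longest line in the other direction.

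**Figure D2:**
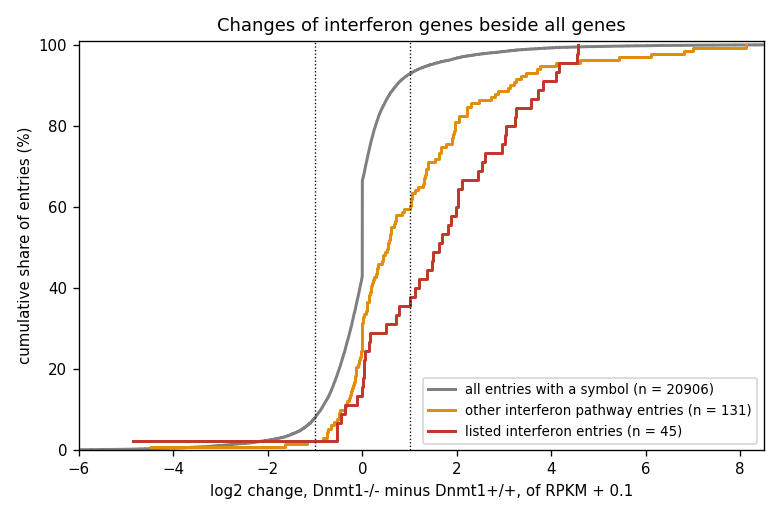
Cumulative share of entries against the log2 change of RPKM + 0.1 from Dnmt1+/+ to Dnmt1-/- MEFs, for the 45 listed interferon entries, 131 other entries of the pathway and all 20906 entries with a symbol, with dotted lines at 2-fold. At the quartiles and the median the curve of the listed entries lies to the right of the others. The median is 1.62 against 0.55 for the other entries of the pathway and 0 for all. At the ends this order does not hold. The largest change is 4.56 for the listed and 8.12 for the other entries of the pathway, and the smallest is -4.86 and -4.47.

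Both genes of the ISG15 system were over 2-fold higher in Dnmt1-/- MEFs, and their log2 changes were the largest of the 45 entries with the pseudocount of 0.1. With 0.01 that of Oas3 was the largest, at 5.81, and with 1 that of Isg15 was, at 4.16, followed by the joint entry of Gbp1 and Gbp2 at 2.93. Isg15, a ubiquitin-like protein that is conjugated to many targets after interferon exposure, lies on chromosome 4 of mm9 from 155573533 to 155574927. It was at 2.56 RPKM in Dnmt1+/+ MEFs and reached 62.5 RPKM in Dnmt1-/- MEFs, 23.5-fold higher, with a log2 change of 4.56. Usp18, the protease that removes Isg15 from its targets and restrains signalling by the interferon receptor, was at 0.221 RPKM in Dnmt1+/+ and 7.49 RPKM in Dnmt1-/- MEFs. This is 23.6-fold higher, or a log2 change of 4.56, which depends on the pseudocount and was 2.80 with a pseudocount of 1 and 5.02 with 0.01. Ube2l6, the enzyme that passes Isg15 on for conjugation, was at 2.41 and 3.96 RPKM, within 2-fold. Uba7 and Herc6, which also act in Isg15 conjugation, were over 2-fold higher. Uba7, in a joint entry with Cdh29 and Cdhr4, was at 0.769 and 3.28 RPKM. Herc6 was at 2.10 and 4.47 RPKM, 2.08-fold higher and close to the threshold.

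Among 15 antiviral effectors, 13 (86.7%) were over 2-fold higher in Dnmt1-/- MEFs, against 7.23% of all entries with a symbol. None was over 2-fold lower, against 8.03% of all, which in so few entries says little. The median log2 change was 1.98. The Ifit genes encode proteins that bind viral RNA, and 3 of them lie side by side on chromosome 19 between 34625107 and 34724499. Ifit1 was at 1.01 RPKM in Dnmt1+/+ and 13.1 RPKM in Dnmt1-/- MEFs, 11.9-fold higher. Ifit3 was at 2.38 and 20.0 RPKM, 8.12-fold higher. Ifit2, their neighbour, was at 8.38 RPKM in Dnmt1+/+ and 8.54 RPKM in Dnmt1-/- MEFs, so that it had the highest level of the 3 in the first library and the lowest in the second. Between Ifit3 and Ifit1 lies I830012O16Rik, a close paralog of Ifit3 that could share reads with it, which was at 0.924 and 9.44 RPKM.

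The listed members of the Ifitm family, whose proteins hinder the entry of viruses into cells, showed the same kind of divergence within 1 gene cluster on chromosome 7. Ifitm3 was at 34.6 RPKM in Dnmt1+/+ and 121.5 RPKM in Dnmt1-/- MEFs, 3.51-fold higher and the highest level of any interferon entry except Eif2ak2. Ifitm1 was at 1.64 and 3.39 RPKM, and with a 2.0-fold difference it lies at the threshold itself and under it with a pseudocount of 1. Ifitm2, the most abundant of the 3 in Dnmt1+/+ MEFs at 65.2 RPKM, was at 48.0 RPKM in Dnmt1-/- MEFs. The order of Ifitm2 and Ifitm3 was thus exchanged between the libraries. These paralogs are similar in sequence, and how shared reads were divided between them is not given in the sources used here.

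Bst2 (tetherin), which holds budding virus particles at the cell surface, was at 11.6 RPKM in Dnmt1+/+ and 91.6 RPKM in Dnmt1-/- MEFs, a log2 change of 2.97. The guanylate-binding proteins are large GTPases that act on intracellular pathogens. The joint entry of Gbp1 and Gbp2 was at 0.986 and 14.1 RPKM, 13.1-fold higher, and that of Gbp3 and Gbp7 at 0.428 and 4.24 RPKM, 8.22-fold higher. As each of these entries holds 2 neighbouring genes, the share of either gene cannot be given. Of the other guanylate-binding proteins, Gbp5, Gbp6, Gbp10 and the joint entry of Gbp4 and Gbp9 were over 2-fold higher at levels under 1 RPKM, and Gbp8 and Gbp11, under 0.1 RPKM in both libraries, were within 2-fold. Parp14, an ADP-ribosyltransferase, was at 0.278 and 3.48 RPKM, a log2 change of 3.24. Ifi35 was at 8.44 RPKM in Dnmt1+/+ and 31.3 RPKM in Dnmt1-/- MEFs, 3.68-fold higher.

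The remaining antiviral effectors stayed under 1 RPKM in both libraries. Mx2, a dynamin-like GTPase, was at 0.0772 RPKM in Dnmt1+/+ and 0.872 RPKM in Dnmt1-/- MEFs. Its neighbour Mx1 was at 0.112 and 0.391 RPKM. Rsad2 (viperin), an enzyme that makes a chain-terminating nucleotide, was at 0.0196 and 0.371 RPKM, and Ifi44 at 0.180 and 0.693 RPKM. All 4 are counted as more than 2-fold higher, but these levels are low, and with a pseudocount of 1 in place of 0.1 none of the 4 remains past 2-fold.

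As examples, promoters of 5 genes over 2-fold higher and of Irf3, which was at 9.29 and 9.40 RPKM, were picked by hand. The examples do not stand for their groups, as the counts further on show. Printed are the 250 bases before each annotated start of transcription. They are RefSeq sequences of the build GRCm38.p6, which differs from the mm9 build of the RNA table, and each reads 5′ to 3′ along the gene. Capitals mark matches to GAAANNGAAA on either strand, the tandem core of the interferon-stimulated response element that Irf proteins bind.
Isg15 (chr4:156200819-156201068, - strand): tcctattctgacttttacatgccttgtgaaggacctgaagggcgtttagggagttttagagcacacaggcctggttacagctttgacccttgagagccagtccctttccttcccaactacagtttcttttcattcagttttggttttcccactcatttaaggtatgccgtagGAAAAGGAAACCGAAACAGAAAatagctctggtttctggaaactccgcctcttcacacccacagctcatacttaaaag
Ifit1 (chr19:34640639-34640888, + strand): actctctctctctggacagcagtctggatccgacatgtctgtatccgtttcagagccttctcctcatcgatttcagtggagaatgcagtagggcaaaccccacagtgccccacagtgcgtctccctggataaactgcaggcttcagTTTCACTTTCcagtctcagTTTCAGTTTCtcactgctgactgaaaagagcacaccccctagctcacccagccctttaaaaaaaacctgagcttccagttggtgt
Ifit3 (chr19:34583279-34583528, + strand): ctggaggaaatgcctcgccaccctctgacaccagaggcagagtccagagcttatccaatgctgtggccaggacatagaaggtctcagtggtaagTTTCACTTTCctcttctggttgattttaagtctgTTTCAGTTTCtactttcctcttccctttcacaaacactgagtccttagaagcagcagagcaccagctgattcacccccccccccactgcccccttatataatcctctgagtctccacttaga
Oas1a (chr5:120907526-120907775, - strand): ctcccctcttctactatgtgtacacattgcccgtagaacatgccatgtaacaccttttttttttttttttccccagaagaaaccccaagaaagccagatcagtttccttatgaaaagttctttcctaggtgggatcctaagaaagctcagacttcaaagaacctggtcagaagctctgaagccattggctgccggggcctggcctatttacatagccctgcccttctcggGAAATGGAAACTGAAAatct
Bst2 (chr8:71537473-71537722, - strand): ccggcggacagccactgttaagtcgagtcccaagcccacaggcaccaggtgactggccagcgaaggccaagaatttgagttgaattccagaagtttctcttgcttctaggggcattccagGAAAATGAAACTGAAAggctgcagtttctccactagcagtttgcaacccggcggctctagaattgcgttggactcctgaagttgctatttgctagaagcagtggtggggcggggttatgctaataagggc
Irf3 (chr7:44997398-44997647, + strand): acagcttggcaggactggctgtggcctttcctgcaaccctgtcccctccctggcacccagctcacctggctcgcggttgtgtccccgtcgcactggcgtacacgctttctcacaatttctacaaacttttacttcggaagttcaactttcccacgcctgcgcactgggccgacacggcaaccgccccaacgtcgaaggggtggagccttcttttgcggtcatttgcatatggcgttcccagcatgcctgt

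In the Isg15 sequence 3 overlapping matches formed a single run, and Oas1a and Bst2 each had 2 overlapping matches. Ifit1 and Ifit3 each had 2 separate matches, on the opposite strand, and the Irf3 sequence had none. The search was extended to windows of 300 bases, from 250 before to 50 after the start, which were found for 37 of the 45 genes. GAAANNGAAA or its reverse complement was present for 16 of the 37 genes (43.2%), against 3.99% of the 27025 genes in the RefSeq table. It was present for 12 of the 21 genes that were more than 2-fold higher and for 4 of the 16 that were not, namely Stat2, Irf2, Ifitm2 and Eif2ak2. The other 9 genes that were higher, among them Irf7, Irf5, Irf9 and Oasl2, had no match to these letters in the window. A gene is counted as holding a motif where any of its annotated windows does.

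A second motif, TTCNNNGAA, is the palindromic core of the gamma-activated site, used in the response to interferon gamma, and reads the same on both strands. It can overlap the first motif, and in Bst2 and Ifitm3 the matches did. It was found in 14 of the 37 genes (37.8%), against 9.55% of all genes in the table. Here the split was the other way, with 5 of the 21 genes that were more than 2-fold higher and 9 of the 16 that were not, among them Irf1, Irf8, Ifnar1 and Ifnar2. A match describes the sequence and was not tested as a binding site.

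**Figure D3:**
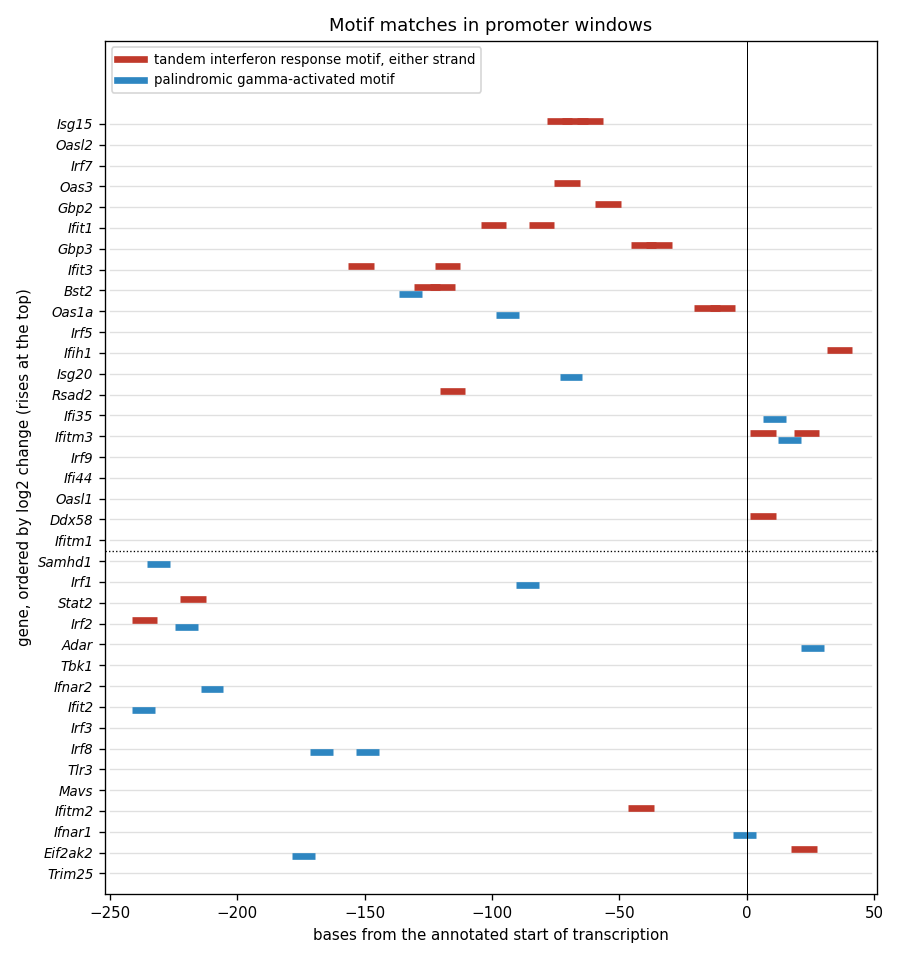
Positions of matches to both motifs in the promoter windows of 37 genes, in bases from the annotated start of transcription at 0, with genes ordered by log2 change and a dotted line between the 21 genes that were more than 2-fold higher (above) and the other 16 (below). Matches to the tandem interferon response motif lie mostly above the line, with 12 genes above and 4 below.

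The number of CpG dinucleotides, the sites at which Dnmt1 maintains methylation, was counted in the same windows, as a description with no test. The 21 genes that were more than 2-fold higher had a median of 5 CpGs in 300 bases, with quartiles of 3 and 7. The other 16 genes had a median of 18.5, with quartiles of 15.75 and 23.75, and all genes in the table a median of 7. Of the genes that were higher, Irf5 had 35 CpGs, Ddx58 had 15, Ifih1 had 14 and Bst2 had 11. Of the others, Ifitm2 had the fewest, with 4 CpGs, and Tlr3, Ifit2 and Adar had 10, 10.5 and 12. These counts describe sequence and not methylation, and as genes of a cluster resemble each other the genes are not independent. The methylation of these promoters was not analysed here. CpG numbers were not set against the RNA level in Dnmt1+/+ MEFs, nor summarised for higher genes outside the list.

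**Figure D4:**
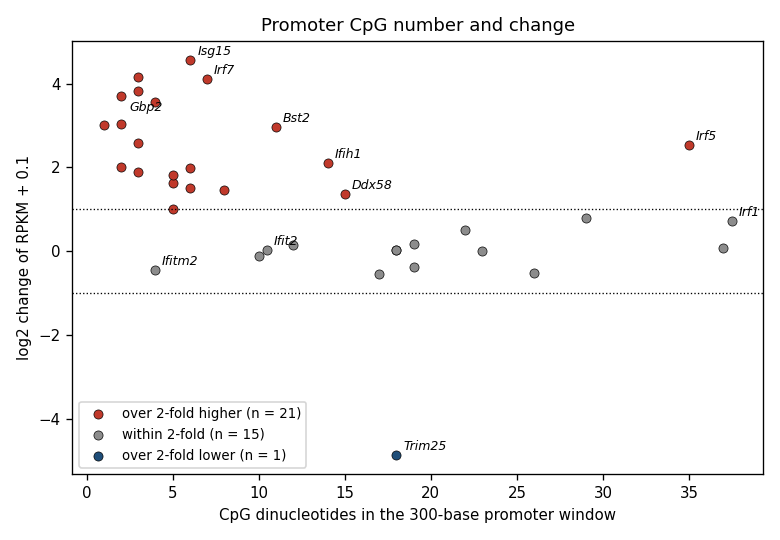
Number of CpG dinucleotides in the 300-base promoter window (median over the windows of a gene) against the log2 change of RPKM + 0.1, for 37 interferon genes, with dotted lines at 2-fold. The 21 genes that were higher have a median of 5 CpGs and the 16 other genes a median of 18.5, where all genes of the RefSeq table have a median of 7.

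The enzymes that act on nucleic acids and nucleotides were divided. The 5 listed genes of the oligoadenylate synthetase family, which make oligoadenylates that activate RNase L or are relatives of such enzymes, were over 2-fold higher in Dnmt1-/- MEFs. Oasl2 was at 0.239 RPKM in Dnmt1+/+ and 6.0 RPKM in Dnmt1-/- MEFs, 18.0-fold higher. Oas3 was at 0.0186 and 1.59 RPKM, a log2 change of 3.83. The others stayed under 1 RPKM in both libraries. Oas1a was at 0.00969 and 0.560 RPKM, and Oas2 at 0.0198 and 0.285 RPKM. Oasl1 was listed at 0 for the Dnmt1+/+ library and reached 0.176 RPKM in the other. With a pseudocount of 1, Oas1a, Oas2 and Oasl1 are no longer past 2-fold. Of the other genes of the family, Oas1b, at 0.333 and 1.54 RPKM, and Oas1g, at 0.0280 and 0.213 RPKM, were more than 2-fold higher. Oas1c, at 0.266 and 0.361 RPKM, was within 2-fold, as were Oas1d and Oas1e, under 0.1 RPKM in both libraries, and Oas1f and Oas1h, listed at 0 in both. Oas2, Oas3 and Oas1a share 1 cluster on chromosome 5, from 121180342 to 121357534, and Oasl2 and Oasl1 lie together elsewhere on that chromosome.

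Isg20, an exonuclease that degrades RNA, was at 3.32 RPKM in Dnmt1+/+ and 13.8 RPKM in Dnmt1-/- MEFs, 4.05-fold higher. Samhd1, which hydrolyses deoxynucleotides and so limits reverse transcription, was at 36.0 and 62.0 RPKM, 1.72-fold higher and under the threshold. Adar, which edits adenosine in double-stranded RNA and keeps it from being sensed as foreign, was at 5.74 and 6.33 RPKM. The entry of Adar overlaps that of Chrnb2 in the table, but Chrnb2 was under 0.1 RPKM in both libraries.

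Of 10 nucleic acid sensors, adaptors and kinases, 5 were over 2-fold higher, 1 was over 2-fold lower and 4 were within 2-fold. Over all entries with a symbol 7.23% were higher and 8.03% lower. All 3 cytosolic RNA helicases of the family were higher. Dhx58 (LGP2), a regulator of both other helicases, was at 0.796 RPKM in Dnmt1+/+ and 8.45 RPKM in Dnmt1-/- MEFs, 9.54-fold higher. Ifih1 (MDA5), which binds long double-stranded RNA, was at 0.671 and 3.22 RPKM, 4.31-fold higher. Ddx58 (RIG-I), which binds RNA ends that carry a triphosphate, was at 5.02 and 13.0 RPKM, 2.57-fold higher. The helicase with the highest level in Dnmt1+/+ MEFs thus had the smallest difference, and Ddx58 remained the most abundant of the 3 in both libraries.

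Tmem173 (STING), the adaptor for cytosolic DNA, was at 1.55 RPKM in Dnmt1+/+ and 6.61 RPKM in Dnmt1-/- MEFs, a log2 change of 2.03. Zbp1, which recognises nucleic acid in the Z conformation, was at 0.0832 and 0.296 RPKM, low in both libraries and past 2-fold with the pseudocount of 0.1 but not with 1. Mavs, the adaptor of the RNA helicases on mitochondria, was at 8.15 and 6.28 RPKM, and the kinase Tbk1 at 27.5 and 28.7 RPKM. The adaptor for DNA therefore differed by more than 2-fold between the libraries and the adaptor for RNA did not. Tlr3, the endosomal receptor for double-stranded RNA, was at 0.799 and 0.727 RPKM. Eif2ak2 (PKR), the kinase that halts translation on double-stranded RNA, had the highest level of all 45 entries, 188.5 RPKM in Dnmt1+/+ and 129.5 RPKM in Dnmt1-/- MEFs.

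Trim25, a ubiquitin ligase that promotes signalling by Ddx58, was the exception in direction. It was at 3.08 RPKM in Dnmt1+/+ MEFs but at 0.00965 RPKM in Dnmt1-/- MEFs, which is a log2 change of -4.86. The entry lies on chromosome 11 from 88860717 to 88881607, and no other entry of the table overlaps it. The low value in Dnmt1-/- MEFs is close to those of entries listed at 0.

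Among the transcription factors, 3 of 8 were more than 2-fold higher and none was lower, against 7.23% and 8.03% of all entries with a symbol. Irf7, which amplifies interferon production and is itself interferon-stimulated, was at 0.168 RPKM in Dnmt1+/+ and 4.5 RPKM in Dnmt1-/- MEFs, 17.1-fold higher. Irf5 was at 0.448 and 3.06 RPKM, 5.77-fold higher. Irf9, the DNA-binding partner of Stat2, was at 5.04 and 15.6 RPKM, 3.06-fold higher. Irf1 was at 12.9 and 21.3 RPKM, a log2 change of 0.72, and Stat2 at 6.30 and 8.94 RPKM, a log2 change of 0.50.

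Irf3, which is present before any stimulus and is activated by phosphorylation, was at 9.29 RPKM in Dnmt1+/+ and 9.40 RPKM in Dnmt1-/- MEFs. Irf2, which can compete with Irf1 for its sites, was at 11.5 and 12.9 RPKM. Irf8, a factor of blood cells, was listed at 0 in both libraries with the status NOTEST, the only interferon entry without the status OK. The receptor subunits were within 2-fold, with Ifnar2 at 27.5 and 28.0 RPKM and Ifnar1 at 11.5 and 7.94 RPKM.

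The share of entries over 2-fold higher fell as the level in Dnmt1+/+ MEFs rose, as it did over all entries. Of the 20 interferon entries under 1 RPKM in that library, 18 were over 2-fold higher in Dnmt1-/- MEFs, with a median log2 change of 2.49. The 2 exceptions were Tlr3 and Irf8. Of the 15 entries from 1 to under 10 RPKM, 9 were more than 2-fold higher. Of the 10 entries at 10 RPKM or more, only Bst2 and Ifitm3 were. Over all entries with a symbol the shares in the same 3 ranges were 10.3%, 6.75% and 2.48%. The pseudocount acts most in the lowest range. The Dnmt1+/+ value sets the range and is also subtracted in the change, so such a trend can arise from the measure itself. It is given as a description only.

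**Figure D5:**
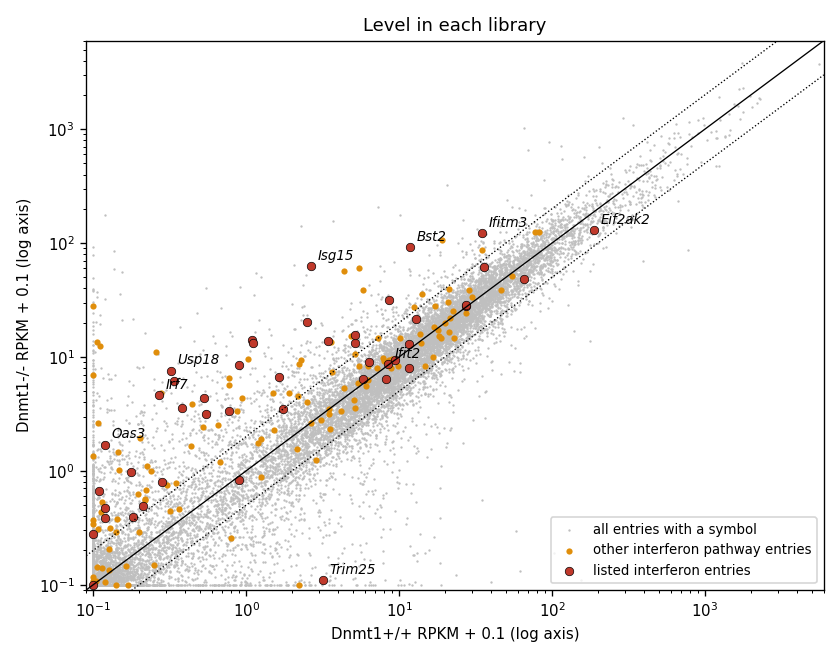
RPKM + 0.1 in the Dnmt1+/+ library against RPKM + 0.1 in the Dnmt1-/- library, both on log axes, for all entries with a symbol (grey), 131 other entries of the interferon pathway (orange) and the 45 listed entries (red), with a solid line at equal levels and dotted lines at 2-fold. Of the 45 listed entries 29 lie above the upper dotted line, and Trim25 lies alone below the lower one.

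Other genes of the pathway, taken from a list of 146 symbols of which 130 had an entry, were examined beside these. Of their 131 entries, 53 (40.5%) were over 2-fold higher, against 7.23% of all entries with a symbol, and the median log2 change was 0.55. Over 2-fold lower were 3 (2.29%), against 8.03% of all entries. The higher entries were unevenly spread over the list. Among 85 entries of other interferon-stimulated genes 48 (56.5%) were more than 2-fold higher. Of 30 entries for other nucleic acid sensing genes 5 (16.7%) were higher. The remaining 16 entries, of interferon signalling, were within 2-fold, but the list was left incomplete there and nothing is read from their count.

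Jak1, at 46.7 and 38.9 RPKM, Tyk2, at 4.07 and 3.23, and Ifngr1, at 29.7 and 33.7, were within 2-fold. Interferon gamma (Ifng) and the type I interferon Ifnk were listed at 0 in both libraries. The inhibitor Socs1 was at 2.57 and 2.54 RPKM.

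Several of these genes were at 0.157 RPKM or less in Dnmt1+/+ and well above 1 RPKM in Dnmt1-/- MEFs. Sp100, a nuclear body protein, was at 0.00561 RPKM in Dnmt1+/+ and 13.4 RPKM in Dnmt1-/- MEFs, and its neighbour Sp110 at 0.00769 and 2.51 RPKM. Aim2, an inflammasome sensor of cytosolic DNA, was at 0.0104 and 12.4 RPKM, and Casp1, the protease of inflammasomes, was at 6.82 RPKM in Dnmt1-/- MEFs and listed at 0 in the other library. Xaf1 was at 0.157 and 11.0 RPKM. With the pseudocount of 0.1, the log2 changes of Sp110, Xaf1, Casp1, Aim2 and Sp100, from 4.60 to 7.0, exceeded those of all 45 listed entries. So did that of 1 entry at the Herc3 locus, at 8.12, which is described below.

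Some other genes, at 0.178 to 18.9 RPKM in Dnmt1+/+ MEFs, were also higher. Ifi27l1 was at 5.39 and 60.2 RPKM, Lgals9 at 4.26 and 56.5 RPKM, and Lgals3bp at 5.74 and 38.5 RPKM. Apobec3, a cytidine deaminase that restricts retroviruses and retroelements, has 2 entries at 1 locus, which were at 18.9 and 105.8 RPKM and at 3.52 and 7.25 RPKM. The immunity-related GTPases Irgm2 and Igtp were at 0.178 and 4.70 RPKM and at 0.677 and 5.55 RPKM. The neighbours Parp9 and Dtx3l, which form a complex, were at 2.18 and 9.30 RPKM and at 1.41 and 4.70 RPKM. Of the 85 entries of other interferon-stimulated genes, 35 were within 2-fold. Among these were Ifi30 at 17.1 and 28.2 RPKM and Pml at 13.5 and 15.9 RPKM.

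The 3 lower entries were Unc93b1, which carries endosomal receptors, at 2.75 and 1.16 RPKM, Apobec1 at 0.694 and 0.157, and 1 of 3 entries at the Herc3 locus. These 3 Herc3 entries went in different directions, from 2.11 to 0 RPKM, from 0 to 27.7 and from 0.0957 to 0.523, and cannot be assigned to 1 gene product from the table.

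The cells were checked for markers of the labelled and of other cell types. Of 14 fibroblast markers 12 were at 1 RPKM or more in Dnmt1+/+ and 11 in Dnmt1-/- MEFs, among them Vim, Col1a1 and Fn1, and their summed level was 6448 and 5083 RPKM. Lum and Fap were under 0.1 RPKM in both libraries. In Dnmt1-/- MEFs 4 were over 2-fold lower and 2 over 2-fold higher, against 8.03% and 7.23% of all entries. Lower were Col1a2 at 1241 and 476 RPKM, Fn1 at 664 and 235, Fbln1 at 56.3 and 7.43, and Thy1 at 4.84 and 0.129. Higher were S100a4 at 290 and 1262 RPKM and Pdgfra at 6.95 and 18.7. Many interferon-stimulated genes are also expressed in macrophages. Of 13 markers of macrophages and other blood cells, 3 were over 2-fold higher in Dnmt1-/- MEFs, namely Csf1r at 0.0702 and 6.08 RPKM, Cd68 at 0.596 and 3.63, and Cd14 at 1.51 and 3.23, and the summed level was 2.20 and 13.0 RPKM. Of the same 13 markers, Ptprc (CD45), Emr1, Tyrobp, Laptm5, Cd3e and Siglech were listed at 0 in both libraries. The summed level of 7 endothelial markers was 6.58 and 2.77 RPKM, of which Flt1 made up 6.08 and 2.06 RPKM, and that of 7 epithelial markers was 7.26 and 2.52 RPKM. Krt19, at 6.90 and 0.326 RPKM, was the 1 epithelial marker over 2-fold lower, while 3 were over 2-fold higher, namely the joint entry of Krt14 and Krt17 at 0.0349 and 1.46 RPKM, Krt18 at 0.0358 and 0.441, and Krt8 at 0 and 0.216. The part of these cell types in the interferon values was not tested. In bulk RNA, a change in the number of cells with a high level and a change in all cells cannot be told apart.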

How the data were processed

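Strand-specific mRNA-seq libraries of Dnmt1+/+ and Dnmt1-/- MEFs, 1 per genotype, were used. Per the labels and the study's methods, the authors used TopHat to map reads to mm9, Cufflinks to assemble transcripts and Cuffdiff for the deposited RPKM values, with a status per entry. Versions, any scaling beyond mapped reads and the handling of reads shared by paralogs are not given in the sources used here.

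Changes are differences of log2(RPKM + 0.1). Entries of any status were kept, so that genes low in both libraries count, and an entry joining several symbols counts once. Called means past 2-fold, as no test is possible with 1 library per genotype. Members and lists were chosen with earlier results of these data known. Named are all members. Of other pathway genes, only a part of those past 2-fold with a mean RPKM of at least 1 is named, with some others. Both were picked after their values were seen. From the list of other pathway genes 2 genes are not reported here and enter none of its counts. Alternatives were pseudocounts of 1 and 0.01, RPKM filters, status OK only, subtraction of the median, a 1.5-fold threshold and, chosen after seeing the data, leaving out joint entries. Motifs were searched in RefSeq promoter windows (GRCm38.p6). Python 3.11.15, numpy 2.4.6, pandas 2.3.3 and matplotlib 3.10.9 were used. Table starts count from 0 and are printed from 1.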

Additional observations from a re-analysis of the deposited data

Results flagged for a closer look

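Besides the entry of Samhd1, the table holds an entry without a gene symbol at the same locus on chromosome 2. It was not used above, and it was at 14.6 RPKM in the Dnmt1+/+ library against 19.6 RPKM in the Dnmt1-/- library, which is a log2 change of 0.43. It was listed here because a signal above that of the control library appeared in an entry outside the comparisons, and the difference has no replicate check.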

How the results depend on the processing

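The 29 higher interferon entries became 20 with a pseudocount of 1 (3.75% of all entries), where Ifi44, Ifitm1, Mx1, Mx2, Oas1a, Oas2, Oasl1, Rsad2 and Zbp1 were no longer past 2-fold and the median log2 change was 0.73. The count was 31 at 1.5-fold (12.1% of all entries), 27 without joint entries (7.14%), and 29 with a pseudocount of 0.01 (11.8%), with status OK only (9.92%) and with the median subtracted (8.4%), and Trim25 was the 1 lower entry under all 8 alternatives. For the other pathway entries, a pseudocount of 1 gave 31 of 131 higher, 1 lower (3.85% of all entries) and a median of 0.26, and a pseudocount of 0.01 gave 6 lower (12% of all). A filter on the mean RPKM, which leaves fewer entries, gave 32 higher (7.42% of all), and a 1.5-fold threshold gave 9 lower (16.9% of all). Of the 30 interferon entries past 2-fold none changed direction under these alternatives, while Tlr3, within 2-fold, went from -0.12 to 0.018 with the median subtracted. No paired analysis was possible because there is 1 library per genotype, and for the same reason no replicate could be left out. The table holds no counts, and how depth limits entries at low RPKM was not tested.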
